A study of Mus musculus with 24 samples.

Results

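The genes described here are 9 markers of radial glia and astrocytes: Fabp7, Slc1a3, Slc1a2, Gfap, Aqp4, Gja1, Prom1, Aldh1l1 and S100b. They form a list of names with no threshold on their values, and each was represented by its brightest probe set that names a single gene. All 9 were measured, among 19938 genes on the larger of 2 array platforms and among 18194 on the smaller. The larger platform held 18 arrays of mouse cells of the strain Black Agouti 129, with 3 arrays in each of 6 groups. Embryonic stem cells (ES) and neuronal progenitors (NP) were labelled RESTko, a knock-out of the transcriptional repressor REST, or RESTwt, its wildtype. Terminal neurons (TN), made by differentiating such cells in culture, were labelled RESTko or RESThet, a heterozygous knock-out, so that TN had no wildtype group on this platform. The titles of its ES and NP arrays begin with one number and those of its TN arrays with another. The meaning of that number is not given, and whatever it stands for cannot be told apart from the step to TN. The smaller platform held 6 arrays of wildtype cells of mixed 129Sv-C57Bl/6 strain, with 2 arrays at each of the same stages, called the mixed-strain course below. How many clones or separate cultures stand behind the replicates, and which part of Rest was deleted, is not given in the sources used here. P-values therefore measure the spread between these arrays, which may be technical in part.

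Radial glia are the elongated progenitors of the embryonic nervous system. They divide to give neurons first and astrocytes later, and share with astrocytes a set of genes for lipid binding, glutamate uptake and cell coupling. Notch signalling, acting through the DNA-binding protein RBPJ, keeps radial glia as progenitors, and STAT signalling acts on genes of maturing astrocytes such as Gfap. In cultures that pass from ES cells through radial glia-like progenitors to neurons, some of these genes mark the progenitors and others the glia that appear beside the neurons.

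The promoters of 4 members are shown because these genes stand for the patterns described below: Fabp7 and Slc1a3 rose early and kept rising, Gfap rose late, and Prom1 peaked in progenitors and differed between genotypes. The sequences are RefSeq windows on GRCm38.p6, from 250 bases before to 10 bases after the start of transcription, written 5′ to 3′ on the gene's own strand. Capitals mark matches to the RBPJ motif TGGGAA, which reads TTCCCA on the opposite strand, to the STAT motif TTCNNNGAA, which reads alike on either strand, or to the TATA box TATAAA, which reads TTTATA on the opposite strand.
Fabp7, chr10:57784673-57784932, plus strand: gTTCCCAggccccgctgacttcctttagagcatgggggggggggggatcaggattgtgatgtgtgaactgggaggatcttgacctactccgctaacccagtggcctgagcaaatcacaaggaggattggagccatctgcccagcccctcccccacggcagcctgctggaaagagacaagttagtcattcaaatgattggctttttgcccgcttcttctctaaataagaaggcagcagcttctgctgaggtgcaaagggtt
Slc1a3, chr15:8710798-8711057, minus strand: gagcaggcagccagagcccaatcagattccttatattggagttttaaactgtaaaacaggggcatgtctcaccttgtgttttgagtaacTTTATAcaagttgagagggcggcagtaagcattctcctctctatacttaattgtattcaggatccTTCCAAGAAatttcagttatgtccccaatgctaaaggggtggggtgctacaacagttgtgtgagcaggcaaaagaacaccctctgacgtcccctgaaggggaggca
Gfap, chr11:102897191-102897450, minus strand: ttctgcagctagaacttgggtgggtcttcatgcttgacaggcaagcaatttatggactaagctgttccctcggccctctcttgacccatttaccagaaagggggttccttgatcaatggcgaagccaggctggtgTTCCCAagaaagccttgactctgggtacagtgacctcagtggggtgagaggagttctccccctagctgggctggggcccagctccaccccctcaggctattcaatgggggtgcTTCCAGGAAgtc
Prom1, chr5:44101727-44101986, minus strand: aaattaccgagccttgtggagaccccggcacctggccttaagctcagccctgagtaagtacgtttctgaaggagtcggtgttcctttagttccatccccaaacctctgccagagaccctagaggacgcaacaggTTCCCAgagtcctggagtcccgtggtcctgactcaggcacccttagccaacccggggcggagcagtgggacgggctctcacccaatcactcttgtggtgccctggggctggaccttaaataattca

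The window table held 8 of the 9 members, in 9 windows that ran to 50 bases after the start. Prom1 had 2 of these windows, and the one not shown above, chr5:44094719-44095018, had 0 matches. Counts of members below are of genes, and shares are of windows. On either strand, the RBPJ letters were in the windows of 5 of these 8 genes, Fabp7, Gfap, Prom1, Aldh1l1 and S100b, and in 25.6% of all 32851 windows. The first matched base lay at -249 in Fabp7, -116 in Prom1 and -115 in Gfap, counted from the start of transcription. The STAT letters were in 2 of the 8 genes, at -2 in Gfap and -96 in Slc1a3, and in 8.3% of all windows. The TATA box letters were in the Slc1a3 window alone among the members, at -161, and in 13.6% of all windows. No motif overlapped another in these windows. A match is a run of letters, not a measured binding site.

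Values are the deposited log2 probe-set signals, so that a difference of 1 is a doubling of signal. Levels are not comparable between genes, because each probe set has its own brightness. Arrays of a group correlated across genes, each by its brightest probe set, with Pearson's r of 0.992 to 0.998 on the larger platform and 0.993 to 0.995 on the smaller. Array medians lay between 5.02 and 5.07 for ES, 5.19 and 5.26 for NP, and 5.41 and 5.49 for TN arrays, and the lower quartile of all probe sets was 3.52. The stage labels were checked on marker genes: 13 of 14 neuron markers rose from NP to TN in both such comparisons, and all 10 pluripotency markers fell from ES to NP. The remaining pluripotency signal was uneven between arrays of a group. Its linear sum over the 10 markers was 1252 to 2430 in RESTwt and 953 to 2441 in RESTko NP arrays. At TN it was 419 to 1712 in RESThet and 613 to 1384 in RESTko arrays, beside 21034 to 21646 in RESTwt ES arrays. The Rest probe set followed the genotype labels at ES (8.61 ± 0.07 in RESTko, 8.96 ± 0.02 in RESTwt, SD, n = 3, adjusted p = 0.00234), did not differ detectably at NP (7.47 ± 0.09 and 7.48 ± 0.03, adjusted p = 0.958), and at TN was higher in the arrays labelled RESTko (7.37 ± 0.09) than in those labelled RESThet (7.03 ± 0.03, adjusted p = 0.0187). Genotypes below are therefore those of the labels. Whether the probes lie in the deleted part of Rest is not known here, so a level in RESTko arrays checks nothing by itself.

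The members did not move as a block along differentiation. From ES to NP in RESTwt cells, 4 of the 9 rose (Fabp7, Slc1a2, Prom1 and Slc1a3) and 4 fell (Aldh1l1, S100b, Gja1 and Aqp4), at an adjusted p under 0.05 in limma over all genes. Over all genes of that comparison 31.0% rose and 36.1% fell. In RESTko cells the same 4 rose and 3 fell (Aldh1l1, Gja1 and S100b), against 32.2% and 33.9% of all genes. From NP to TN, 7 rose (Fabp7, Slc1a3, Slc1a2, Gfap, Aqp4, Aldh1l1 and S100b) and 2 fell (Gja1 and Prom1). That held in RESTko cells, where 41.8% of all genes rose and 29.2% fell, and between RESTwt NP and RESThet TN, where 43.2% rose and 29.9% fell. The latter step changes genotype as well as stage. The median difference of the 9 members from NP to TN was 1.05 in RESTko cells and 1.42 from RESTwt to RESThet cells, beside 0.13 and 0.14 for all genes. These 4 steps share their NP arrays in pairs, so they are given side by side and not as repeats of each other.

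**Figure D1:**
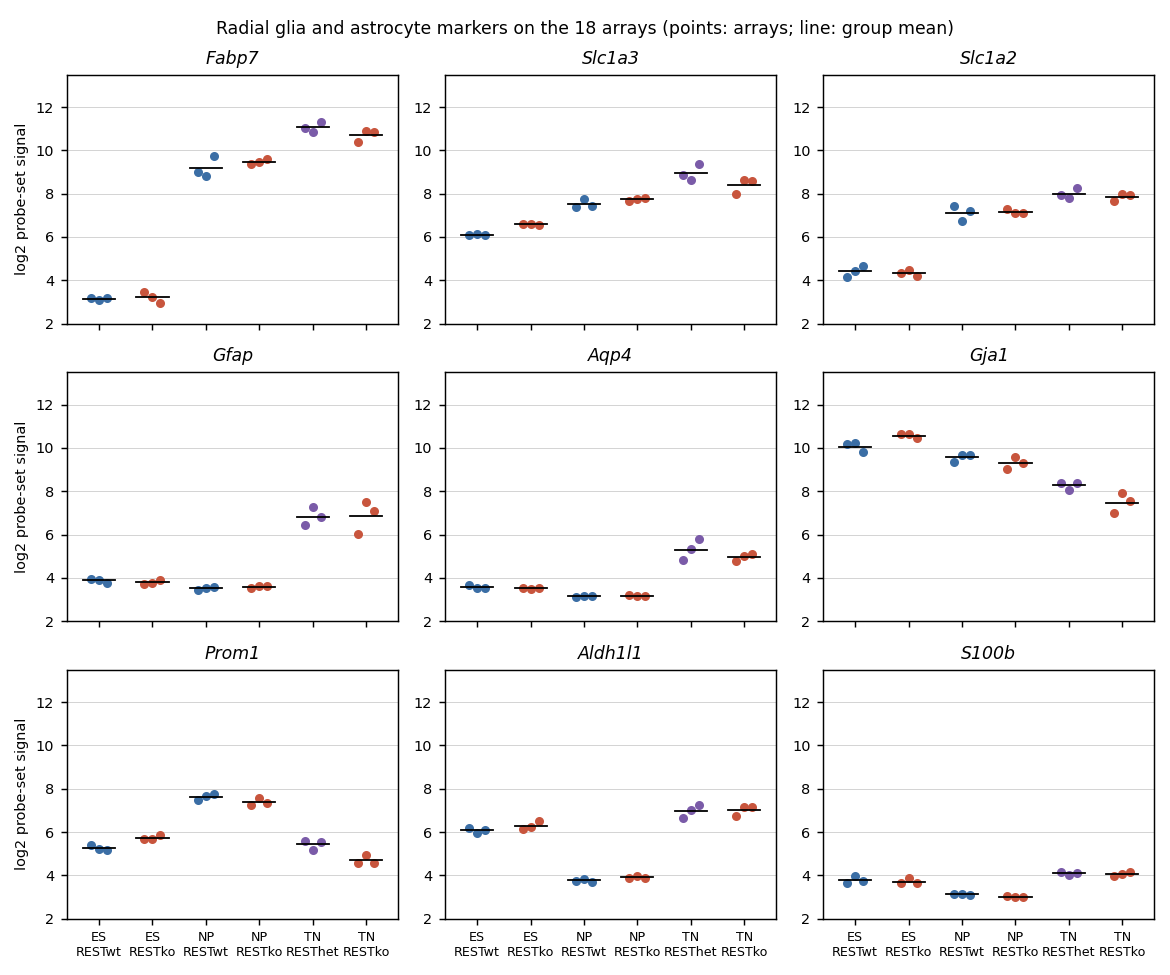
Log2 probe-set signal of the 9 genes (vertical axis) in the 6 groups of the larger platform (horizontal axis); points are arrays, 3 in each group, and lines are group means. Fabp7 climbs from a mean of 3.15 (RESTwt ES) through 9.17 (RESTwt NP) to 11.06 (RESThet TN), Gfap and Aqp4 stay low until TN, Aldh1l1 and S100b dip at NP, Prom1 peaks at NP and Gja1 falls at each step.

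Fabp7 encodes the brain fatty acid binding protein, a lipid carrier that is among the usual markers of radial glia. Its gene lies on chromosome 10 from 57784923 to 57788450 (GRCm38.p6). The ES arrays read 3.20, 3.09 and 3.16 in RESTwt and 3.46, 3.24 and 2.96 in RESTko. The NP arrays read 8.98, 8.80 and 9.73 in RESTwt and 9.35, 9.48 and 9.58 in RESTko, and the TN arrays 11.01, 10.85 and 11.33 in RESThet and 10.39, 10.89 and 10.84 in RESTko. ES levels were below the lower quartile of all probe sets, and no array of a later stage overlapped an earlier one, while the genotypes overlapped at every stage. The step from ES to NP was 6.02 (SE 0.19, 64.8-fold, adjusted p = 2e-14) in RESTwt cells and 6.25 (SE 0.19, 76.3-fold, adjusted p = 1.04e-14) in RESTko cells, the largest rise among the 9 members. With ES signals that low, these folds are of signal and may understate the change in RNA. At TN it rose a further 1.24 (SE 0.19, 2.36-fold) in RESTko cells and 1.89 (SE 0.19, 3.71-fold) from RESTwt to RESThet cells.

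Slc1a3 and Slc1a2 encode the glutamate transporters GLAST and GLT-1, which clear glutamate from around synapses. GLAST is present in radial glia, and GLT-1 is the main transporter of mature astrocytes. Slc1a3 (chromosome 15, 8634124 to 8710807) read 6.07, 6.13 and 6.11 in the RESTwt ES arrays and 6.58, 6.61 and 6.56 in the RESTko ES arrays. At NP it read 7.39, 7.76 and 7.41 in RESTwt and 7.67, 7.73 and 7.80 in RESTko, and at TN 8.86, 8.61 and 9.36 in RESThet and 7.96, 8.62 and 8.58 in RESTko. Its levels rose in small steps with no overlap between stages, and the ES genotypes were also apart from each other. The rise from ES to NP was 1.41 (SE 0.17, 2.67-fold, adjusted p = 6.83e-07) in RESTwt cells and 1.15 (SE 0.17, 2.22-fold, adjusted p = 8.36e-06) in RESTko cells. From NP to TN it was 0.66 (SE 0.17, 1.58-fold, adjusted p = 0.00203) in RESTko cells and 1.42 (SE 0.17, 2.68-fold, adjusted p = 4.85e-07) from RESTwt to RESThet cells. With arrays centred on their median the RESTko value was 0.42 (adjusted p = 0.0409).

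Slc1a2 (chromosome 2, 102658239 to 102790784) had a larger early step than Slc1a3. It read 4.16, 4.45 and 4.67 in the RESTwt ES arrays, 7.43, 6.74 and 7.20 in the RESTwt NP arrays and 7.93, 7.78 and 8.24 in the RESThet TN arrays. The RESTko arrays read 4.33, 4.46 and 4.20 at ES, 7.30, 7.09 and 7.09 at NP and 7.65, 7.98 and 7.95 at TN. The genotypes overlapped at each stage and the stages did not. The step from ES to NP was 2.69 (SE 0.16, 6.47-fold, adjusted p = 8.94e-11) in RESTwt and 2.84 (SE 0.16, 7.14-fold, adjusted p = 4.07e-11) in RESTko cells, and that from NP to TN was 0.86 (SE 0.16, adjusted p = 0.000128) and 0.70 (SE 0.16, adjusted p = 0.000993). The last value was 0.46 (adjusted p = 0.0186) with arrays centred on their median. Slc1a2 had most of its rise before TN, in the same step as Fabp7. Over the 18 arrays Pearson's r was 0.99 between Fabp7 and Slc1a2, 0.93 between Fabp7 and Slc1a3 and 0.93 between Slc1a3 and Slc1a2. These r describe 18 arrays in 3 stages, and any genes that rise at NP and TN share them.

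Gfap and Aqp4 were the late members. Gfap encodes the intermediate filament of astrocytes, and Aqp4 the water channel of their endfeet on blood vessels. Gfap (chromosome 11, 102887336 to 102897200) read 3.95, 3.91 and 3.78 in the RESTwt ES arrays, 3.46, 3.54 and 3.58 in the RESTwt NP arrays, and 6.42, 7.25 and 6.79 in the RESThet TN arrays. In RESTko arrays it read 3.73, 3.78 and 3.89 at ES, 3.53, 3.60 and 3.63 at NP, and 6.04, 7.49 and 7.07 at TN. ES and NP levels lay near the lower quartile of all probe sets, and every TN array was above every earlier one. The rise from NP to TN was 3.28 (SE 0.25, 9.72-fold, adjusted p = 9.87e-10) in RESTko cells and 3.29 (SE 0.25, 9.8-fold, adjusted p = 8.46e-10) from RESTwt to RESThet cells. The step from ES to NP, -0.35 in RESTwt and -0.21 in RESTko cells, did not pass the test (adjusted p = 0.211 and 0.453), although the groups did not overlap and the fits on the 2 compared groups alone passed (adjusted p = 0.0053 and 0.0315). Among the RESTko TN arrays Gfap had the largest SD of the members, 0.74, and among the RESThet TN arrays Aqp4 did, at 0.50.

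Aqp4 read 3.65, 3.54 and 3.51 in the RESTwt ES arrays, 3.13, 3.16 and 3.18 in the RESTwt NP arrays and 4.80, 5.32 and 5.79 in the RESThet TN arrays. In RESTko arrays it read 3.53, 3.47 and 3.52 at ES, 3.20, 3.17 and 3.17 at NP and 4.76, 5.0 and 5.10 at TN. Its TN arrays were again all above the earlier ones. It rose by 1.77 (SE 0.16, 3.42-fold, adjusted p = 1.12e-08) in RESTko cells and by 2.15 (SE 0.16, 4.42-fold, adjusted p = 7.05e-10) from RESTwt to RESThet cells. Before that, from ES to NP, it fell by 0.41 in RESTwt cells (SE 0.16, adjusted p = 0.0299), a call that ended when arrays were quantile normalized (adjusted p = 0.0524) and in 5 of the fits without an array; in RESTko cells the difference was -0.33 (adjusted p = 0.076), which passed with arrays centred on their median (-0.50, adjusted p = 0.0108), array weights (adjusted p = 0.0401) and the compared groups alone (adjusted p = 0.00198). Gfap and Aqp4 had a Pearson's r of 0.97 with each other over the 18 arrays, and of 0.59 and 0.51 with Fabp7.

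Aldh1l1 and S100b had another course, with their lowest levels at NP. Aldh1l1 encodes a folate enzyme that is a general marker of astrocytes, and S100b a calcium-binding protein of astrocytes and some oligodendrocyte precursors. Aldh1l1 (chromosome 6, 90550768 to 90599171) read 6.19, 5.96 and 6.10 in the RESTwt ES arrays, 3.76, 3.85 and 3.71 in the RESTwt NP arrays and 6.63, 7.03 and 7.25 in the RESThet TN arrays. The RESTko arrays read 6.13, 6.25 and 6.50 at ES, 3.90, 3.95 and 3.90 at NP, and 6.75, 7.17 and 7.16 at TN. ES cells therefore had a clear Aldh1l1 signal, which the progenitors lost and the TN arrays exceeded. It fell by 2.31 from ES to NP in RESTwt cells (SE 0.14, 4.94-fold, adjusted p = 8.09e-11) and by 2.38 in RESTko cells (SE 0.14, 5.19-fold, adjusted p = 4.87e-11). It rose from NP to TN by 3.11 (SE 0.14, 8.64-fold, adjusted p = 7.27e-13) in RESTko cells and by 3.19 (SE 0.14, 9.14-fold, adjusted p = 4.44e-13) from RESTwt to RESThet cells.

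S100b (chromosome 10, 76253836 to 76261319) repeated that course near the lower quartile of all probe sets. Its ES arrays read 3.65, 3.97 and 3.74 in RESTwt and 3.65, 3.87 and 3.63 in RESTko, its NP arrays 3.15, 3.14 and 3.08 in RESTwt and 3.05, 2.99 and 3.01 in RESTko, and its TN arrays 4.16, 4.03 and 4.13 in RESThet and 3.96, 4.08 and 4.17 in RESTko. The NP arrays were the lowest, and the highest ES array reached into the TN range. It fell by 0.66 (SE 0.09, adjusted p = 2.87e-06) in RESTwt and 0.70 (SE 0.09, adjusted p = 1.27e-06) in RESTko cells, and rose at TN by 1.05 (SE 0.09, adjusted p = 4.73e-09) in RESTko cells and by 0.98 (SE 0.09, adjusted p = 1.19e-08) from RESTwt to RESThet cells. Aldh1l1 and S100b had a Pearson's r of 0.96 with each other over the 18 arrays, -0.95 and -0.93 with Prom1, and -0.08 and -0.00 with Fabp7.

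Gja1 and Prom1 were the members that fell on the way to TN. Gja1 encodes connexin 43, the main gap junction protein of radial glia and astrocytes, which also couples ES cells. Gja1 (chromosome 10, 56377300 to 56390419) read 10.17, 10.21 and 9.79 in the RESTwt ES arrays and 10.64, 10.62 and 10.45 in the RESTko ES arrays. At NP it read 9.36, 9.65 and 9.69 in RESTwt and 9.04, 9.57 and 9.32 in RESTko, and at TN 8.40, 8.05 and 8.39 in RESThet and 6.98, 7.90 and 7.53 in RESTko. Its highest levels were in ES cells, which are not glia, and its order from low to high was TN RESTko, TN RESThet, NP, ES RESTwt and ES RESTko, with overlap between neighbours only for the NP genotypes. The fall from ES to NP was -0.49 in RESTwt cells (SE 0.19, adjusted p = 0.0273) and -1.26 in RESTko cells (SE 0.19, 2.4-fold, adjusted p = 9.89e-06). The RESTwt value was -0.23 (adjusted p = 0.292) after quantile normalization, and the call also ended without RESTwt NP array a (-0.39, adjusted p = 0.11), RESTwt ES array a (-0.44, adjusted p = 0.0842) or RESTwt ES array b (-0.42, adjusted p = 0.0965). At TN it fell by 1.84 (SE 0.19, 3.58-fold, adjusted p = 7.18e-08) in RESTko cells and by 1.28 (SE 0.19, 2.43-fold, adjusted p = 7.04e-06) from RESTwt to RESThet cells.

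Prom1 encodes prominin-1 (CD133), a membrane glycoprotein of cell protrusions that marks neural stem and progenitor cells. It lies on chromosome 5 from 43993621 to 44102047, the chromosome that also carries Rest at 77265494 to 77286432. It read 5.42, 5.23 and 5.18 in the RESTwt ES arrays, 7.47, 7.65 and 7.78 in the RESTwt NP arrays and 5.58, 5.19 and 5.55 in the RESThet TN arrays. The RESTko arrays read 5.66, 5.66 and 5.87 at ES, 7.24, 7.56 and 7.34 at NP and 4.57, 4.95 and 4.59 at TN. All 6 NP arrays were above all others, and the TN arrays of RESTko were below all others. It rose from ES to NP by 2.35 (SE 0.13, 5.11-fold, adjusted p = 1.79e-11) in RESTwt cells and 1.65 (SE 0.13, 3.15-fold, adjusted p = 2.01e-09) in RESTko cells. It fell from NP to TN by 2.68 (SE 0.13, 6.4-fold, adjusted p = 1.7e-12) in RESTko cells and by 2.20 (SE 0.13, 4.58-fold, adjusted p = 2.41e-11) from RESTwt to RESThet cells. Prom1 therefore returned at TN to about its ES level in RESThet arrays and to below it in RESTko arrays.

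The arrays measure RNA from whole cultures, in which fewer cells of a type and less RNA per cell cannot be told apart. At ES, 1 of the 9 members was higher in RESTko than in RESTwt arrays and none was lower, where 9.24% of all genes were called. That member was Prom1, at 0.45 (SE 0.13, 95% interval 0.18 to 0.72, 1.37-fold, adjusted p = 0.0329), higher in 3 of 3 RESTko arrays than in any RESTwt array. The call ended in 5 of the 6 fits without an ES array, where the difference was 0.38 to 0.48 and the adjusted p 0.0589 to 0.14. Gja1 (0.51, SE 0.19, interval 0.12 to 0.91, adjusted p = 0.104) and Slc1a3 (0.48, SE 0.17, interval 0.12 to 0.83, adjusted p = 0.0907) had differences of like size and no overlap between genotypes. They passed in the fit on the ES arrays alone (adjusted p = 0.0286 and 0.00287) and with array weights (0.0421 and 0.0233), and not in the fit across all groups. Groups that do not overlap were found for 3 of the 9 members and for 29.4% of all genes. The other 6 members differed by -0.10 (Slc1a2) to 0.21 (Aldh1l1), with adjusted p of 0.427 or more.

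Genes on marker lists of other cells also differed between the ES genotypes, where 9.24% of all genes were called. Of 12 endoderm and epithelial markers 4 were higher in RESTko (Krt8 by 1.60, Krt18 by 1.55, Krt19 by 1.25 and Dab2 by 1.20), and their summed linear signal was 3196 to 3999 in RESTko against 2281 to 2698 in RESTwt arrays. Of 10 fibroblast and mesenchyme markers 2 were higher (Tagln by 1.49 and Acta2 by 1.19), with sums of 584 to 894 and 487 to 506. Of 10 pluripotency markers 1 was lower (Zfp42, by -0.99), with sums of 19773 to 20595 and 21034 to 21646. Of 14 neuron markers 7 were higher (Syp by 2.72 and Snap25 by 2.13 the most), with sums of 1628 to 1887 and 1045 to 1100. Such sums follow the brightest probe sets of a list. More cells of a type and more RNA of its markers per cell cannot be told apart here. The part of either in the Prom1 difference was not tested.

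At NP, 0 of the 9 members were called by limma, beside 8.03% of all genes, and 0 had an unadjusted p under 0.05, beside 19.3% of all genes. The differences ran from -0.26 (Gja1, SE 0.19, interval -0.65 to 0.14, adjusted p = 0.535) to 0.30 (Fabp7, SE 0.19, interval -0.11 to 0.71, adjusted p = 0.464). Slc1a3 differed by 0.21 (interval -0.14 to 0.57), Slc1a2 by 0.04 (-0.30 to 0.39) and Prom1 by -0.25 (-0.52 to 0.02). Aldh1l1 (0.14) and S100b (-0.11) had groups that did not overlap, 2 of 9 members beside 21.9% of all genes, but with adjusted p of 0.684 and 0.595. Without RESTwt NP array c, the highest of its group for Fabp7, the Fabp7 difference was 0.58 and passed (adjusted p = 0.0411), and without RESTwt NP array b, the lowest, it was 0.12 (adjusted p = 0.885).

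At TN, 2 of the 9 members were lower in RESTko than in RESThet arrays and none was higher, where 1.16% of all genes were called and 0.802% were called lower. Prom1 was lower by 0.73 (SE 0.13, 1.66-fold, adjusted p = 0.00596; the difference was -0.73, interval -1.0 to -0.46), in 3 of 3 RESTko arrays below every RESThet array. Gja1 was lower by 0.81 (SE 0.19, 1.76-fold, adjusted p = 0.0419; difference -0.81, interval -1.21 to -0.42), also without overlap. Groups that do not overlap were found for these 2 members and for 16.0% of all genes. Both calls ended in the fit on the TN arrays alone (adjusted p = 0.112 and 0.25). The Gja1 call also ended without RESTko array a (-0.57, adjusted p = 0.17), RESTko array c (-0.84, adjusted p = 0.106), RESThet array a (-0.76, adjusted p = 0.125) or RESThet array c (-0.76, adjusted p = 0.149), while Prom1 kept its call without any 1 array.

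Of the other members at TN, Slc1a3 had -0.55 (SE 0.17, interval -0.91 to -0.20, adjusted p = 0.146), Fabp7 -0.36 (SE 0.19, interval -0.77 to 0.05, adjusted p = 0.519) and Aqp4 -0.35 (SE 0.16, interval -0.68 to -0.02, adjusted p = 0.392). The Aqp4 difference passed without RESThet array a (-0.60, adjusted p = 0.0175) and shrank to -0.10 without RESThet array c (adjusted p = 0.876). Gfap (0.05, interval -0.47 to 0.56), Aldh1l1 (0.06, interval -0.23 to 0.35), S100b (-0.03, interval -0.22 to 0.15) and Slc1a2 (-0.13, interval -0.47 to 0.22) did not pass. The median of the 9 differences was -0.35, beside -0.02 for all genes. In all, 4 members (Prom1, Gja1, Slc1a3 and Aqp4) had an unadjusted p under 0.05 in limma, beside 11.7% of all genes.

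**Figure D2:**
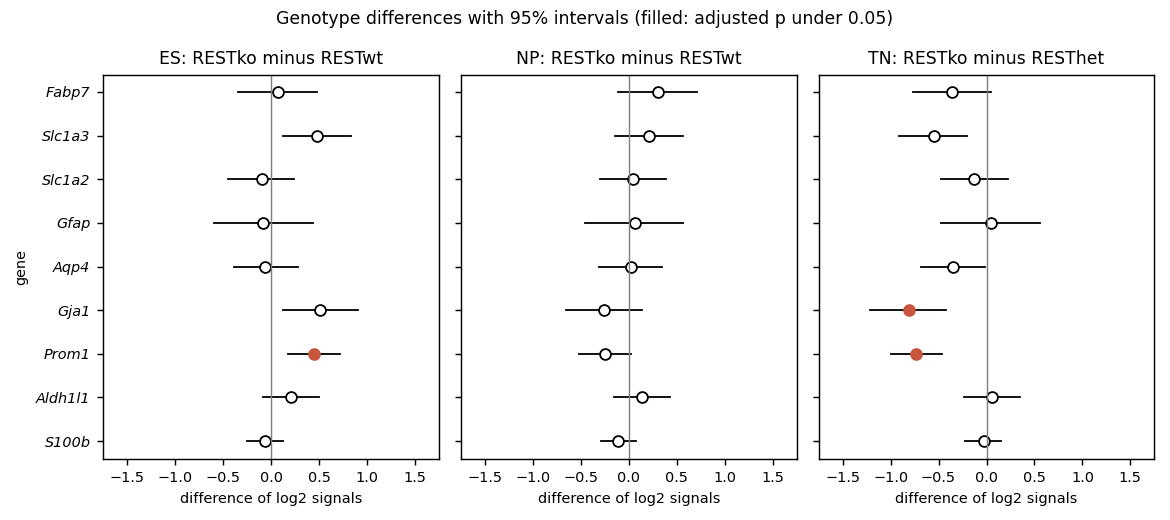
Differences of log2 signal between genotypes (horizontal axis) for the 9 genes (vertical axis) at ES, NP and TN, from limma; points are estimates, bars 95% intervals, and filled points have an adjusted p under 0.05. Prom1 is filled at ES (0.45) and TN (-0.73) with opposite sign, Gja1 at TN (-0.81), and no gene at NP.

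An array of each genotype stood apart at TN. In RESTko array a, 0 of the 9 members were above the mean of the 6 TN arrays, with a median deviation of -0.50 and a range of -0.90 to -0.13. In RESThet array c, 8 of the 9 were above it, with a median deviation of 0.44. The summed linear signal of the 9 members was 2156 to 3185 in RESTko and 3089 to 4253 in RESThet arrays. That sum was set mostly by the brightest probe set, Fabp7 (means of 10.71 and 11.06), which was not called at TN. The mean log2 signal of the 9, in which each gene has equal weight, was 6.56 to 7.12 and 7.09 to 7.43. The Prom1 difference stayed called without RESTko array a or RESThet array c, and the Gja1 call ended without either, with the values given above.

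Other marker lists were read at TN in the same way, where 1.16% of all genes were called. Each sum follows the brightest probe sets of its list. Neuron markers summed to 16921 to 18436 in RESTko and 18671 to 20552 in RESThet arrays, and 1 of 14 was called (Slc17a6, -0.83). Cell division genes summed to 1189 to 1751 and 1409 to 2043, and 1 of 11 was called (Ccnd1, -0.61). Oligodendrocyte lineage markers summed to 552 to 753 and 696 to 1136, and 1 of 11 was called (Ugt8a, -0.45). Fibroblast and mesenchyme markers summed to 5786 to 6733 and 4793 to 6365 with 0 of 10 called, and endoderm and epithelial markers to 553 to 819 and 455 to 642 with 1 of 12 called (Dab2, 0.85). Ependymal and choroid markers (9) and microglia and blood markers (6) had 0 called, with sums of 188 to 205 and 110 to 122 in RESTko and 173 to 200 and 115 to 117 in RESThet arrays. Pluripotency markers summed to 613 to 1384 in RESTko and 419 to 1712 in RESThet arrays, with 0 of 10 called. Their mean log2 signal in arrays a, b and c was 5.45, 6.33 and 5.74 in RESTko and 6.45, 5.09 and 5.83 in RESThet. Within each genotype Prom1 and Gja1 ranked the arrays in that same order, as did the mean of the cell division genes. Between genotypes the pluripotency values overlapped. The part of these lists in the Prom1 and Gja1 differences was not tested.

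Whether the genotype difference itself changed between stages was tested as an interaction. Between ES and NP, 1 of 9 members was called, where 4.87% of all genes were. For Prom1 the difference of differences was -0.70 (SE 0.18, interval -1.08 to -0.32, adjusted p = 0.0315): RESTko minus RESTwt was 0.45 at ES and -0.25 at NP. The call ended in 8 of the 12 fits without an array, at -0.63 to -0.73 with adjusted p of 0.0501 to 0.0871. Gja1 had a value of like size, -0.77 (SE 0.27, interval -1.33 to -0.21, adjusted p = 0.118), and passed in the fit on these 4 groups alone (adjusted p = 0.0496). Between NP and TN the interaction sets RESTko minus RESThet at TN against RESTko minus RESTwt at NP. There 0 of 9 were called by limma, beside 3.91% of all genes, and 4 had an unadjusted p under 0.05, beside 17.5% of all genes. These were Slc1a3 (-0.77, SE 0.24, adjusted p = 0.086), Fabp7 (-0.66, SE 0.28, adjusted p = 0.218), Gja1 (-0.56, SE 0.27, adjusted p = 0.285) and Prom1 (-0.48, SE 0.18, adjusted p = 0.159), all with a smaller rise or a larger fall in RESTko than from RESTwt to RESThet. Slc1a3 passed with array weights (-0.83, adjusted p = 0.0499) and without RESThet TN array b (-0.94, adjusted p = 0.032), Fabp7 without RESTwt NP array c (-0.94, adjusted p = 0.0237) and Aqp4 without RESThet TN array a (-0.62, adjusted p = 0.0362). Other omissions made these values smaller: Fabp7 was -0.47 without RESTwt NP array b (adjusted p = 0.441), and Aqp4 was -0.13 without RESThet TN array c (adjusted p = 0.771). Gfap (-0.01), Aldh1l1 (-0.08), S100b (0.07) and Slc1a2 (-0.17) had the smallest values.

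The mixed-strain course gave the members' levels in wildtype cells at all 3 stages. From ES to NP 4 of 9 rose (Fabp7, Slc1a2, Slc1a3 and Prom1) and 1 fell (Aldh1l1), where 19.9% of all genes rose and 19.0% fell. From NP to TN 5 rose (Fabp7, Aldh1l1, Slc1a2, Gfap and Aqp4) and 2 fell (Prom1 and Gja1), where 21.7% rose and 29.1% fell. The median difference of the members was 0.13 and then 1.40, beside -0.01 and -0.09 for all genes. This platform was not set against the other in any test, because the tables were made separately.

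In the mixed-strain course Fabp7 rose mainly at the later step. It read 3.64 and 4.58 at ES, 6.02 and 6.94 at NP and 12.68 and 12.28 at TN. The step from ES to NP was 2.37 (SE 0.36, 5.15-fold, adjusted p = 0.000773) and that from NP to TN was 6.00 (SE 0.36, 64-fold, adjusted p = 1.25e-06). On the larger platform the order of the step sizes was the other way, 6.02 and then 1.89. Slc1a2 read 3.26 and 3.49 at ES, 5.06 and 6.00 at NP and 8.97 and 8.83 at TN. It too had its larger step at the end, 2.15 (SE 0.27, adjusted p = 0.000248) and then 3.37 (SE 0.27, 10.3-fold, adjusted p = 7.44e-06), against 2.69 and 0.86 on the larger platform. These sizes are those of the brightest of 5 Slc1a2 probe sets: the other 4 had later steps of 0.01 to 0.26, and the mean over the 5 had steps of 0.53 (adjusted p = 0.0132) and 0.76 (adjusted p = 0.00139). Slc1a3 read 6.10 and 6.11, then 8.05 and 7.41, then 8.26 and 7.81. It rose by 1.62 at the early step (SE 0.23, adjusted p = 0.000485), and its later difference of 0.31 (SE 0.23, adjusted p = 0.313) was 0.63 (adjusted p = 0.0469) without NP array a and -0.01 without NP array b. With the mean over its 6 probe sets the early rise was 0.81 (adjusted p = 0.00354).

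Gfap read 3.50 and 3.49 at ES, 3.51 and 3.32 at NP and 5.57 and 5.77 at TN, and Aqp4 read 2.54 and 2.84, 2.89 and 2.75, and 3.96 and 4.47. Both were again low until TN, where Gfap rose by 2.26 (SE 0.14, 4.78-fold, adjusted p = 1.51e-06) and Aqp4 by 1.40 (SE 0.19, 2.63-fold, adjusted p = 0.000233). Aldh1l1 read 6.43 and 6.57, 3.34 and 3.43, and 7.48 and 7.07. It was again lowest at NP, with a fall of 3.12 (SE 0.16, 8.68-fold, adjusted p = 1.36e-06) and a rise of 3.89 (SE 0.16, 14.8-fold, adjusted p = 1.77e-07). Its dimmer second probe set moved by -0.55 and 0.51, and the mean of both by -1.83 and 2.20. S100b, by contrast, had no step that passed: 3.28 and 3.28, 3.29 and 3.34, and 3.58 and 3.44, between the lower quartile of the platform's probe sets, 2.88, and its array medians of 3.83 to 3.95.

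Prom1 read 8.33 and 8.29 at ES, 9.93 and 9.88 at NP and 6.46 and 6.14 at TN. It peaked at NP, with a rise of 1.60 (SE 0.14, 3.02-fold, adjusted p = 3.67e-05) and a fall of 3.61 (SE 0.14, 12.2-fold, adjusted p = 1.51e-07), and its TN arrays lay below its ES arrays. Gja1 read 10.38 and 10.56, 9.90 and 9.76, and 8.10 and 7.19. Its early difference of -0.64 did not pass (SE 0.26, adjusted p = 0.0842) except with array weights (0.045) or the compared groups alone (0.00693), and its later fall was 2.19 (SE 0.26, 4.55-fold, adjusted p = 9.47e-05). All 6 Gja1 probe sets were lower at each step, by -0.88 to -0.33 and by -3.24 to -0.34. Probe sets of Slc1a3 and Aqp4 disagreed: 4 of 6 for Slc1a3 had early steps of 0.99 to 1.62 and the 2 dimmest had -0.07 and -0.21. The later steps of those 4 were 0.31, the one used above, and 0.56, 0.73 and 0.51, and of the 2 dimmest -0.31 and 0.12. Of 3 probe sets for Aqp4 the later steps were 1.40, 1.73 and 0.04, and of 3 for Gfap they were 2.26, 3.04 and 0.48.

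**Figure D3:**
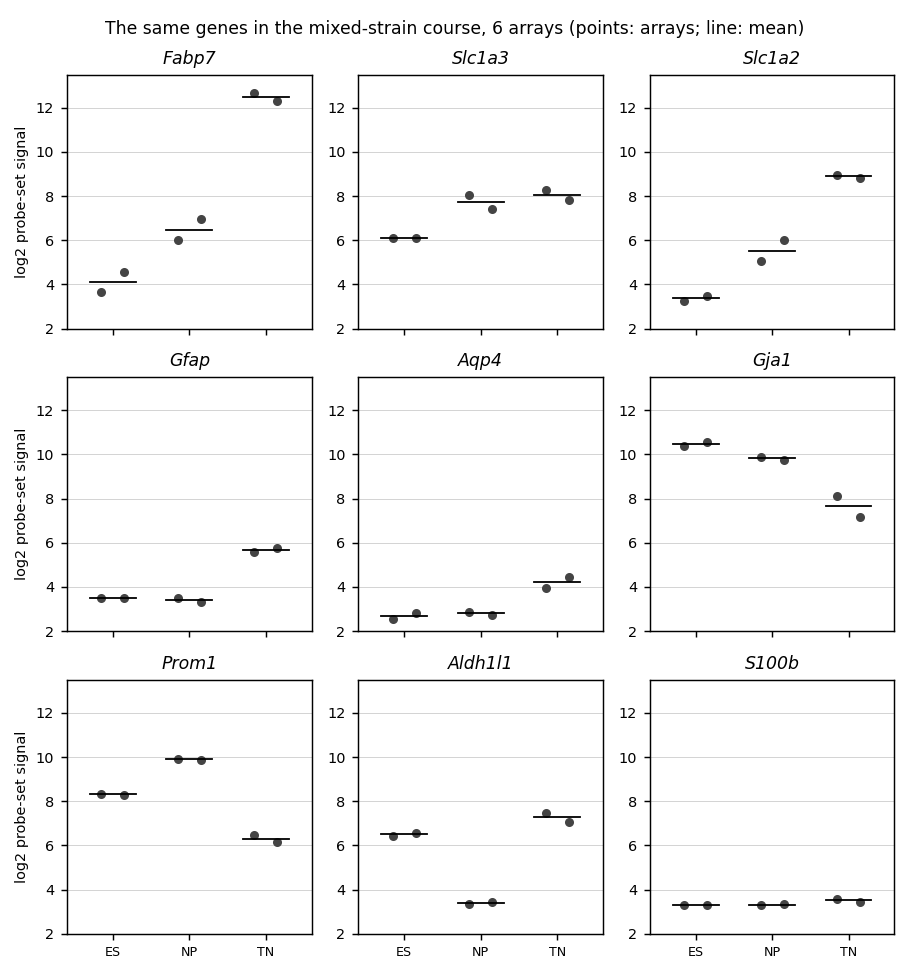
Log2 probe-set signal of the 9 genes (vertical axis) at ES, NP and TN in the mixed-strain course on the smaller platform; points are arrays, 2 at each stage, and lines are means. Fabp7 makes its larger step at TN (6.48 to 12.48), Aldh1l1 dips to 3.38 at NP, and Prom1 peaks there at 9.91.

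Other genes of the same cell types were followed from lists of names. Of 27 other radial glia and neural stem genes, 21 rose and 3 fell from ES to NP in RESTwt cells, beside 31.0% and 36.1% of all genes. Among the rises were those of the endothelin receptor Ednrb (5.11, SE 0.23), the cadherin Cdh2 (3.92, SE 0.09) and the transcription factors Pax6 (3.90, SE 0.14) and Sox9 (3.82, SE 0.19). In RESTko cells 23 rose and 4 fell, beside 32.2% and 33.9% of all genes. The median difference of the 27 was 1.66 and 1.50, beside -0.07 and -0.04 for all genes. At TN the list split: 10 rose and 16 fell from RESTwt to RESThet cells, beside 43.2% and 29.9% of all genes. In RESTko cells 9 rose and 17 fell, beside 41.8% and 29.2%. Rises were largest for the receptor phosphatase Ptprz1 (4.07, SE 0.17), the matrix protein tenascin-C, Tnc (4.0, SE 0.14) and Hopx (3.24, SE 0.10), all also made by later radial glia and astrocytes, and the fall was largest for the Id3 inhibitor of differentiation (-3.82, SE 0.16). Among the 9 members Fabp7, Slc1a3 and Slc1a2 rose at both steps, and Prom1 rose and then fell.

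Of 29 measured other astrocyte genes, 8 rose and 11 fell from ES to NP in RESTwt cells and 7 rose and 11 fell in RESTko cells, with medians of -0.09 and -0.16. Of all genes 31.0% rose and 36.1% fell in RESTwt cells, and 32.2% and 33.9% in RESTko cells, so the list stood near all genes at this step. From NP to TN 17 rose and 6 fell from RESTwt to RESThet cells, beside 43.2% and 29.9% of all genes, and 16 rose and 4 fell in RESTko cells, beside 41.8% and 29.2%. The largest rises were those of the GABA transporter Slc6a11 (5.24, SE 0.17), the glypican Gpc5 (4.53, SE 0.09), the sodium pump subunit Atp1b2 (4.12, SE 0.11) and the glycolytic enzyme Aldoc (3.95, SE 0.11). Over the same step all 11 measured cell division genes fell and 13 of 14 neuron markers rose in either comparison. Of 10 fibroblast and mesenchyme markers 7 rose in either comparison (Postn by 5.48 and Dcn by 4.56 from RESTwt to RESThet cells). From RESTwt to RESThet cells 2 of the 10 fell, Tagln (-2.85) among them, and in RESTko cells 1 fell. In the mixed-strain course 18 of the 27 rose and 2 fell from ES to NP, beside 19.9% and 19.0% of all genes. From NP to TN 12 of the 29 rose and 5 fell, beside 21.7% and 29.1% of all genes. Slc6a11 rose by 5.27 (SE 0.20) and Atp1b2 by 4.70 (SE 0.13).

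Between genotypes 5 of the 27 other radial glia genes and 3 of the 29 other astrocyte genes were called at ES, beside 9.24% of all genes, and 4 of each list at NP, beside 8.03%. At TN, beside 1.16% of all genes, 1 of 27 other radial glia genes was lower in RESTko (Tnc, -0.76, SE 0.14, adjusted p = 0.00997), and of the 29 other astrocyte genes the acyl-CoA synthetase Acsbg1 was lower (-0.67, SE 0.15, adjusted p = 0.0376) and tissue factor, F3, higher (0.97, SE 0.21, adjusted p = 0.0311). Their medians were -0.17 and -0.12. At ES 3 radial glia genes were higher and 2 lower, with Cdh2 at 0.80, the intermediate filament Nes at 0.75, Pdpn at 0.61 and the RNA-binding protein Msi1 at -0.47, and 3 astrocyte genes were higher (Clu 0.72, Glul 0.54 and Htra1 0.32). At NP 2 radial glia genes were higher (Pdpn 0.63 and Cdh2 0.36) and 2 lower (Nfix -0.78 and Notch3 -0.37), and 1 astrocyte gene was higher (Sparcl1 1.16) and 3 lower (Clu -0.81, Slc7a11 -0.59 and Slc4a4 -0.57). Clu, a secreted chaperone, was thus higher in RESTko at ES and lower at NP, and its interaction passed (-1.53, SE 0.21, adjusted p = 0.000285).

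**Figure D4:**
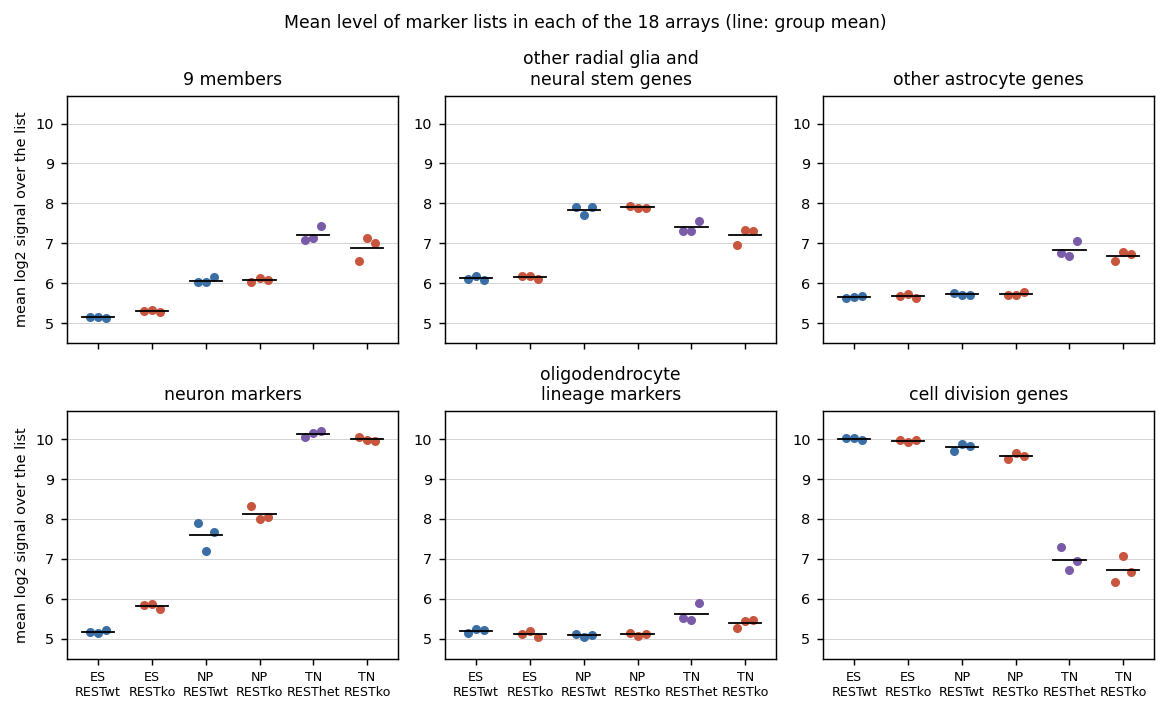
Mean log2 signal over each gene list (vertical axis) in the 6 groups of the larger platform; points are arrays, 3 in each group, and lines are group means. The 9 members are lowest at ES (5.12 to 5.33) and highest at TN (6.56 to 7.43), the other radial glia genes peak at NP (7.70 to 7.94), and the other astrocyte genes rise at TN alone (6.55 to 7.06).

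For each member the 2 genes most like it across the 18 arrays were found by Pearson's r of the log2 values. Fabp7 was most like Sncaip (r = 0.997) and Bcl9 (0.997), and Slc1a2 most like Cxxc4 (0.997) and Arhgap33 (0.995). Slc1a3 had the lowest of these values, with Taok2 (0.970) and Trappc12 (0.970). Gfap was most like Scn7a (0.990) and Abca8a (0.990), and Aqp4 most like Dlgap2 (0.983) and Timp4 (0.982). Gja1 was most like Il17rd (0.987) and Trip4 (0.981), and Prom1 most like Gulp1 (0.983) and Etv6 (0.983). Aldh1l1 was most like Wdr44 (0.988) and Slc25a12 (0.987), and S100b most like Rasgef1a (0.973) and Rasgrp2 (0.971). The nearest gene of each member was outside the list of 9, and every r rests on 3 stages that all these arrays share.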

How the data were processed

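Affymetrix arrays of biotin-labelled total RNA (TRIzol, then RNeasy, per the labels' protocols) were used as 2 value tables, 1 for each platform. The deposited values are log2 probe-set signals; oligo 1.14.0 is named in the submitters' processing notes, and the normalization is not given in the sources used here. Probe sets were named from the platform annotation. Of 35556 on the larger platform 21789 had 1 symbol, 1621 several and 12146 none, and of 45101 on the smaller 34958, 932 and 9211. Probe sets with several symbols were left out, and each gene was taken by its brightest probe set.

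Group means were fitted over all arrays of a platform with limma 3.58.1 (lmFit and eBayes, two-sided, R 4.3.3), with Benjamini-Hochberg adjustment over all genes and a threshold of 0.05. Scripts were tested on simulated data. The members and gene lists were chosen with earlier results of these data known. The text names all 9 members, at most 4 called genes of a list with the largest differences in a comparison, and the 2 genes most like each member (predicted genes, olfactory and vomeronasal receptors and small RNAs left out). Replicate letters were not used to pair the arrays in the main fit. Alternatives were normalization, filtering, probe-set choice, weights, fits on fewer groups, a replicate block and omission of each array. The number of arrays limits the precision.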

Additional observations from a re-analysis of the deposited data

Results flagged for a closer look

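The effect of genotype on Prom1 differed between ES cells and progenitors by a test of the difference itself (limma interaction, adjusted p = 0.0315). RESTko minus RESTwt was 0.45 at ES and -0.25 at NP, a difference of -0.70 (SE 0.18), with the RESTko arrays above the RESTwt arrays in 3 of 3 at ES and overlapping them at NP. Some markers of other cells were also called in this interaction, where 4.87% of all genes were called and 2.55% were called lower. Of 12 endoderm and epithelial markers 3 were lower (Krt8 -2.57, Krt19 -2.52 and Krt18 -2.41) and 0 higher. Of 10 fibroblast and mesenchyme markers 3 were lower (Tagln -2.70, Acta2 -1.61 and Dcn -1.10) and 0 higher. Calls went both ways among 14 neuron markers, 2 lower (Syp -1.74 and Snap25 -1.11) and 1 higher (Elavl4 0.84). The same held for 27 other radial glia genes, 2 lower and 2 higher. The summed linear signal of the endoderm and epithelial list at ES was 3196 to 3999 in RESTko and 2281 to 2698 in RESTwt arrays. At NP it was 2482 to 2570 and 3713 to 5202. That of the fibroblast and mesenchyme list was 584 to 894 and 487 to 506 at ES, and 578 to 947 and 854 to 1155 at NP. Such sums follow the brightest probe sets of a list. Whether other cells had a part in the Prom1 difference was not tested.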

How the results depend on the processing

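Of 1535 values of single members under the alternatives, 1449 kept their direction and their side of the threshold, 33 lost a call, 19 gained one and 34 uncalled values changed sign; no called direction turned. Aqp4 and S100b were among the dimmest 30% of genes on both platforms and were not tested when those were left out. The count of members called at ES (1) was 0 with every probe set, 3 with array weights and 3 with the compared groups alone. At TN (2) it was 1 with every probe set, 1 with a trended and robust fit and 0 with the compared groups alone. The interaction between ES and NP (1) went to 0 with every probe set and 2 with the compared groups alone, and that between NP and TN (0) to 1 with array weights. Without 1 array each, the counts were 0 to 1 at ES, 0 to 1 at NP, 1 to 2 at TN, 0 to 1 for either interaction, 6 to 8 and 7 to 7 for the steps from ES to NP in RESTwt and RESTko cells, 9 to 9 for both steps to TN, and 5 to 5 and 7 to 8 in the mixed-strain course, where a lone array is assumed to vary like the other groups. With every probe set the Prom1 call at ES (adjusted p = 0.0662), its interaction (0.0728) and the Gja1 call at TN (0.0759) ended; the last also ended with a trended and robust fit (0.0788).

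Among all genes, calls at ES went from 1842 to 3430 with array weights and to 1190 without RESTwt array c, at NP from 1602 to 549 with the compared groups alone, and at TN from 231 to 50. The interaction counts went from 970 to 1537 with array weights and 638 with every probe set, and from 780 to 468 with every probe set and 436 with the compared groups alone. Centring arrays on their median shifted the median of all genes by -0.18 and -0.17 from ES to NP, by -0.24 and -0.23 from NP to TN, and by -0.10 at the later step of the course; quantile normalization shifted it by -0.20 and -0.21 from NP to TN. With the replicate block, counts of members called were 1 at ES, 0 at NP, 2 at TN, 1 and 0 for the interactions. Deviations of arrays with the same letter had r of -0.142 to 0.399 between compared groups. The highest were at NP, 0.399 for letter a and 0.309 for letter b, beside 0.007 for letter c. What arrays with the same letter share is not given. Signals near the lower quartile limit what Gfap, Aqp4 and S100b can show before TN, and Fabp7 in ES cells.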
